A study of Rattus norvegicus with 250 samples.

Results

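Hippocampal RNA from F2 rats of the bred High Responder by bred Low Responder cross was compared between animals that had gone through Pavlovian conditioned approach (PavCA) training and animals that had not. Rats were counted as trained when any PavCA score was recorded for them and as untrained when none was, and only dates of death that held both kinds of rat were used. This left 123 of the 250 libraries, from 108 trained and 15 untrained rats, on 3 of 9 dates of death: 6, 17 and 18 December 2013. All of these libraries had passed the quality control of the study, whose 5 failed libraries were left out. The 6 December rats were males (6 trained, 3 untrained). The rats of 17 December (48 trained, 9 untrained) and 18 December (54 trained, 3 untrained) were females. Ages at death ran from 118 to 132 days in trained and from 114 to 130 days in untrained rats. Every rat, trained or not, had first been scored for locomotor activity in an unfamiliar box (LocoScore) and on the elevated plus maze, and every brain was frozen whole and punched later for dorsal and ventral hippocampus.

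In PavCA training a lever is presented just before a food pellet is delivered elsewhere in the chamber. Some rats come to approach the lever (sign trackers) and others the place where food arrives (goal trackers). Learning of this kind draws on glutamatergic transmission and on activity-dependent transcription in the hippocampus, where excitatory synapses are built around AMPA, NMDA and metabotropic glutamate receptors held in place by scaffold proteins such as those of the Shank family.

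The untrained rats were not a random draw of the cross. Of the 15, 13 came from families 11 and 12 (6 and 7 rats), while the 108 trained rats came from 12 families, with 13 and 4 of them from families 11 and 12. On 6 December all 6 trained rats came from family 1, died at 118 days of age and were dissected on days 10 and 11 of the dissection schedule. The 3 untrained rats of that date all came from family 12, died at 114 days and were dissected on day 14. Training, family, age and dissection day cannot be told apart on 6 December. Each group of that date held a single family and birth date, so its rats are likely littermates. The standard errors and p-values given for 6 December therefore rest on the spread among likely littermates treated as independent. On 18 December the 3 untrained rats all came from family 11. Within date and family, 26 trained and 12 untrained rats could be compared in 5 strata, and 13 trained and 12 untrained rats when birth date was matched as well.

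Behavior measured before training did not separate the groups beyond the spread among rats. Mean LocoScore was 571 ± 342 (SD, n = 108) in trained and 503 ± 241 (SD, n = 15) in untrained rats. The difference within dates was 12.9 (two-sided permutation test within date, p = 0.886, adjusted p = 0.886 over 4 measures). Within date and family it was 148, and 89.6 with birth date matched as well (permutation tests within strata, adjusted p = 0.45 and 0.521). Distance travelled in the maze averaged 2220 ± 430 cm in trained and 2020 ± 498 cm in untrained rats, and the difference within dates was 93.5 cm (permutation test, adjusted p = 0.843). Time immobile (difference within dates -3.79 s, permutation test, adjusted p = 0.843) and percent time in the open arms (1.39 percentage points, permutation test, adjusted p = 0.843) did not pass the test either.

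The RNA did differ. The median RNA concentration was 142 ng per µL in trained rats (range 16.9 to 402) and 61.3 ng per µL in untrained rats (range 8.09 to 279). Within dates the means differed by 65.2 ng per µL (permutation test, adjusted p = 0.0441 over 11 technical measures). Ribosomal RNA made up 1.16 ± 0.442% of bases (SD, n = 108) in trained and 1.6 ± 0.507% (SD, n = 15) in untrained rats (permutation test within date, adjusted p = 0.0409). The median coefficient of variation of transcript coverage was 0.437 ± 0.0172 and 0.455 ± 0.019 (permutation test within date, adjusted p = 0.0409). Intergenic bases made up 13.4 ± 1.9% and 12.2 ± 1.17% (permutation test within date, adjusted p = 0.169), and RNA integrity numbers were 9.04 ± 0.223 and 9.03 ± 0.282 (adjusted p = 0.924 in the same test). In the 5 strata of date and family none of the 11 measures passed. There the difference in RNA concentration was 18.5 ng per µL (permutation test, adjusted p = 1.0).

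**Figure D1:**
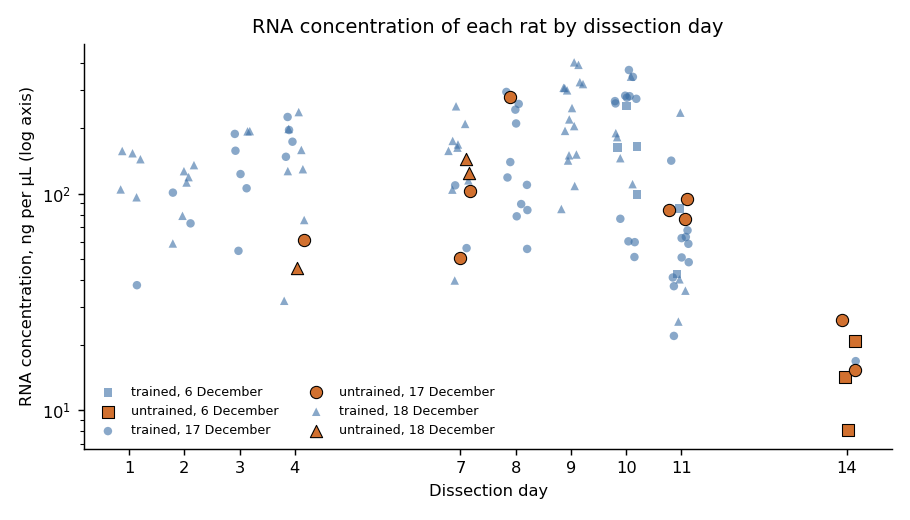
RNA concentration of each of the 123 rats (log axis, ng per µL) against the day of the dissection schedule, with trained rats in blue, untrained rats in orange and the date of death as the symbol. The 6 rats dissected on day 14, of which 5 were untrained, lie between 8.09 and 26.2 ng per µL, and the 3 untrained rats of 6 December (squares) are among them.

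Concentration varied with the dissection day. On day 14 the 5 untrained rats measured between 8.09 and 26.2 ng per µL and the 1 trained rat 16.9 ng per µL, while the lowest untrained rat of any other day had 45.6 ng per µL and the lowest trained rat of any other day, on day 11, 22.1 ng per µL. On day 11 the 3 untrained rats lay between 76.3 and 93.9 ng per µL and the 16 trained rats had a median of 49.5 ng per µL. The 3 untrained rats of 6 December had 8.09, 14.2 and 21 ng per µL, against 42.6 to 253 ng per µL in the 6 trained rats of that date. Since these 3 libraries carry much of what follows, the main results below are also given by date. Total counts ran from 17916830 to 31494272 per trained library and from 19505100 to 31489496 per untrained library, no pair of libraries was identical, and log2 expression correlated between libraries with r of 0.913 to 0.9868 across genes. The vesicular glutamate transporter Slc17a7 averaged 1440 CPM (read counts scaled by the TMM-corrected library total) and the astrocyte filament gene Gfap 791 CPM. Of the gene lists for dentate gyrus, CA1, CA2 and CA3 neurons only Pdzd2, a dentate gyrus marker, could be matched to a gene identifier (mean 25.0 CPM), so the hippocampal origin could be checked by little else.

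Across all genes, 1265 of 19510 tested (6.48%) differed between trained and untrained rats at a false discovery rate (FDR) of 0.10 in a limma-voom model with date of death, sequencing batch and the percentages of rRNA and intergenic bases. Of these, 835 (4.28% of genes tested) were higher and 430 (2.2%) lower in trained rats. The changes were small, with a median absolute log2 fold change of 0.156. The count depended on which rats and terms were used. Without 6 December it fell to 3 genes (0.0154%), with family added it was 0 (1173 genes at an unadjusted p under 0.05), with dissection day added it was 0 (1474 genes at an unadjusted p under 0.05) and in the strata of date and family it was 1 (0.00512%). It was also 0 without the percentages of rRNA and intergenic bases (1622 genes at an unadjusted p under 0.05), where 854 of the 1265 genes kept the sign of their difference. With litter (family and birth date) as a random effect it was 15. Of the genes named below, 6 still passed with that term and 22 did not. These counts for changed rats or terms came from limma-voom alone. edgeR was run for this comparison only with the original rats and terms and called 1231 genes. Leaving out 1 untrained rat at a time gave from 273 genes, without replicate 14 of 6 December, to 2697, without replicate 9 of 17 December.

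**Figure D2:**
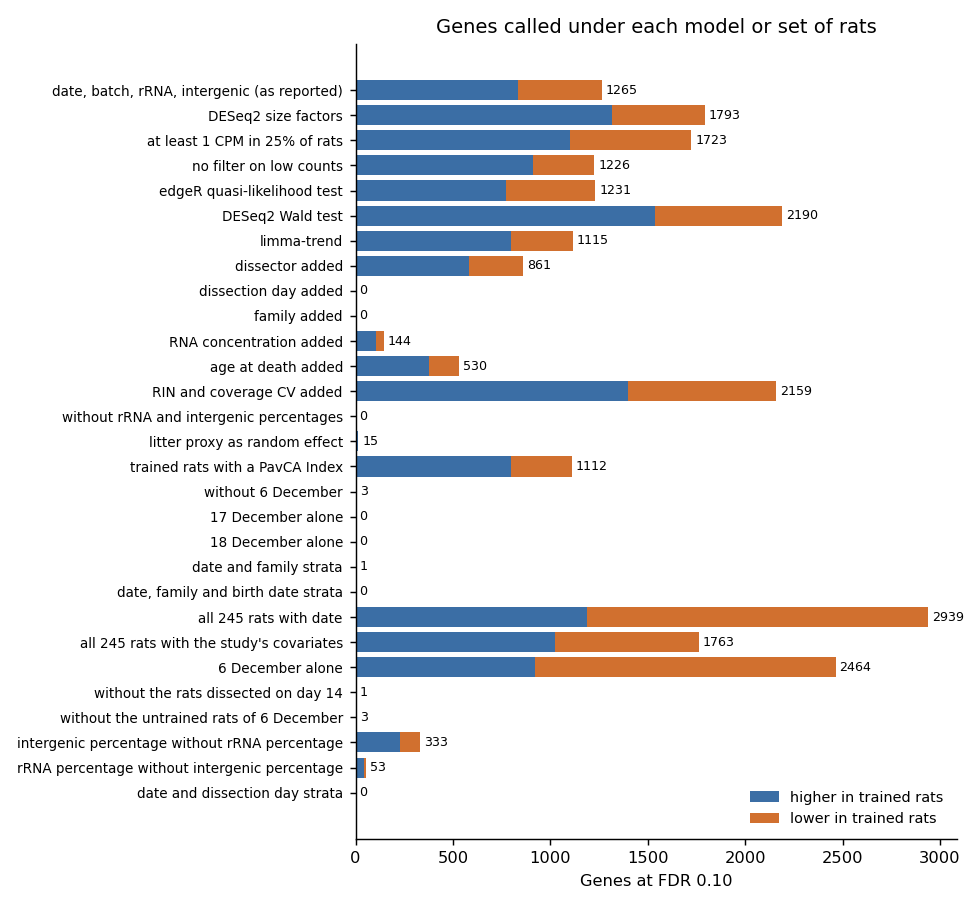
Number of genes at FDR 0.10 (horizontal axis) under each model or set of rats, split into genes higher (blue) and lower (orange) in trained rats, with the total beside each bar. The count is 1265 as reported, 2464 on 6 December alone, and 3 or fewer without 6 December, with family or dissection day added, or on 17 or 18 December alone.

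Cdc37l1, which encodes an Hsp90 co-chaperone related to Cdc37, had the smallest p of all genes, and its adjusted difference had the same direction and a similar size on each date. The unadjusted levels did not show this. On 6 December the 6 trained rats ran from 93.6 to 169 CPM (median 140) and the untrained rats had 111, 115 and 121 CPM. On 17 December the medians were 114 CPM in trained rats (range 74.1 to 180) and 130 CPM in untrained rats (range 71.8 to 139). On 18 December trained rats had a median of 96.5 CPM (range 68.9 to 161) and the untrained rats 88.5, 97.6 and 112 CPM. The groups overlapped on every date, and on 17 December 7 of the 9 untrained rats were above the trained median. After adjustment for sequencing batch, rRNA and intergenic percentages, the medians on the log2 scale were 6.78 against 6.53 on 6 December, 6.79 against 6.58 on 17 December and 6.76 against 6.61 on 18 December. All 15 untrained rats then lay below the trained median of their own date. The gene was chosen for its p in this same fit, so this separation is a description and no further support. The log2 fold change was 0.176 ± 0.029 (SE; limma-voom, adjusted p = 0.00039). It was 0.048 without the RNA percentages (p = 0.586), 0.163 ± 0.031 without 6 December (adjusted p = 0.016), 0.157 with family added (adjusted p = 0.509) and 0.153 ± 0.043 in the strata of date and family (adjusted p = 0.971). No difference between the dates was detected for this gene (moderated F test of training by date, adjusted p = 0.86), with few untrained rats on each date.

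**Figure D3:**
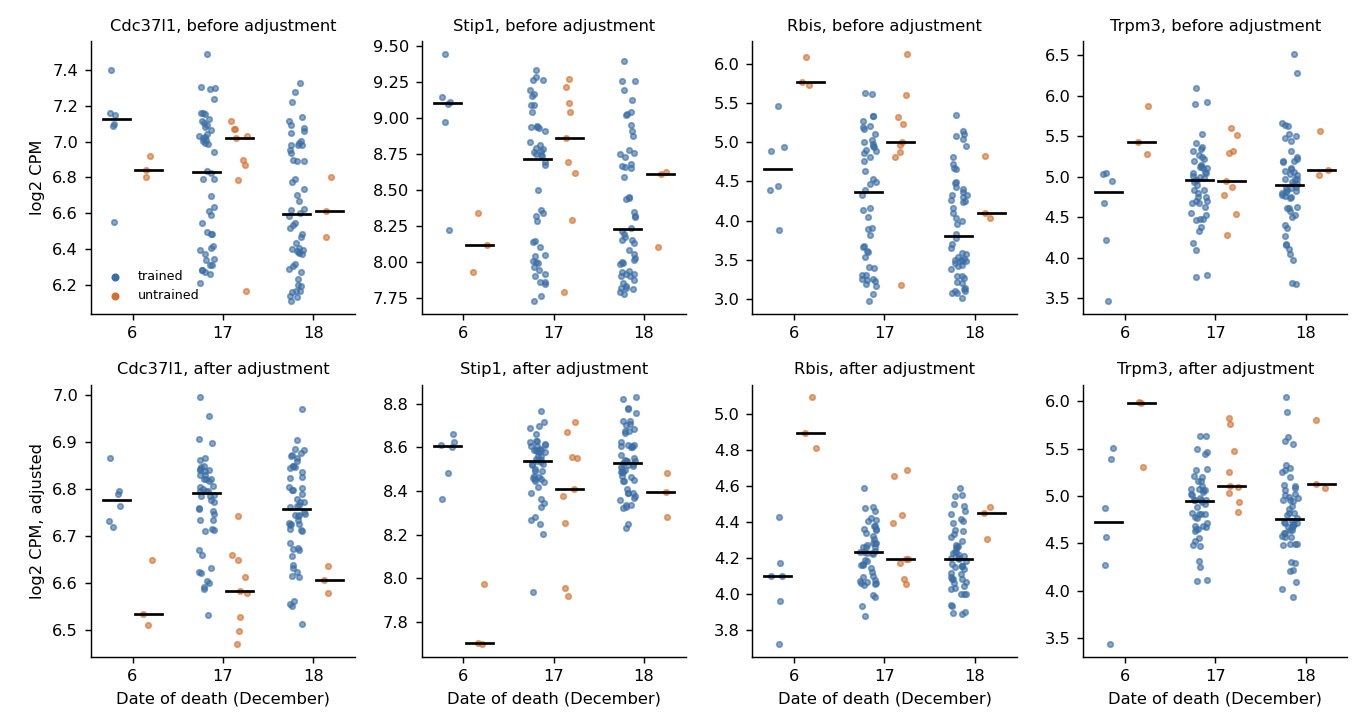
Log2 CPM of Cdc37l1, Stip1, Rbis and Trpm3 in each trained (blue) and untrained (orange) rat by date of death, before adjustment (upper row) and after adjustment for sequencing batch and the percentages of rRNA and intergenic bases (lower row), with black lines at the medians. For Cdc37l1 the adjusted medians are 6.79 against 6.58 on 17 December, and for Stip1, Rbis and Trpm3 the widest gap between groups is on 6 December.

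The other named genes higher in trained rats had their largest difference on 6 December. Stip1 links Hsp70 to Hsp90 during protein folding. It ran from 298 to 696 CPM (median 550) in trained rats of 6 December and was 243, 277 and 324 CPM in the untrained rats. On 17 December the medians were 419 CPM in trained and 465 CPM in untrained rats, and on 18 December 300.0 CPM in trained rats and 391 CPM in untrained rats. The unadjusted order of the groups was therefore opposite on the female dates. The adjusted log2 fold change was 0.234 ± 0.052 over all dates (SE, limma-voom, adjusted p = 0.0101). With litter as a random effect it was 0.194 and did not pass (limma-voom, adjusted p = 0.185). By date it was 0.792 ± 0.117 on 6 December, 0.126 ± 0.06 on 17 December and 0.141 ± 0.096 on 18 December.

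Uba2, a subunit of the enzyme that activates SUMO, had 48.6, 52.0 and 65.3 CPM in the untrained rats of 6 December and 65.2 to 108 CPM (median 99.2) in the trained rats. Its log2 fold change was 0.213 ± 0.042 (adjusted p = 0.00262), with 0.686 on 6 December, 0.127 on 17 December and 0.124 on 18 December. Ranbp6, an importin-like protein, and Ctsf, the lysosomal protease cathepsin F, did not overlap between groups on 6 December. Ranbp6 was 42.3, 47.9 and 48.3 CPM in untrained and 50.5 to 70.1 CPM in trained rats of that date. Ctsf was 99.7, 105 and 116 CPM in untrained and 127 to 224 CPM in trained rats. Both genes overlapped on 17 and 18 December. Over all genes, the CPM of trained and untrained rats did not overlap for 17.3% of genes on 6 December, and for no gene on the other dates, where the trained groups were larger.

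The remaining named genes higher in trained rats were Ipo7, an importin (log2 fold change 0.176 ± 0.036), Gle1, which acts in mRNA export (0.133 ± 0.032), Ssbp2 (0.185 ± 0.044), Bles03 (0.154 ± 0.037) and Tars1, the cytoplasmic threonyl-tRNA synthetase (0.158 ± 0.04), with adjusted p between 0.00397 and 0.0238 in the limma-voom fit. On 6 December in the by-date model these 5 lay between 0.307 (Bles03) and 0.509 (Ssbp2). On 17 December they lay between 0.091 (Bles03) and 0.115 (Ipo7), and none passed the test on that date (adjusted p from 0.539 to 0.692). On 18 December they lay between 0.058 (Gle1) and 0.211 (Bles03), and none passed (limma-voom, adjusted p from 0.597 to 0.861). ENSRNOG00000017215, the gene with the second smallest p, for which no symbol was at hand, had a log2 fold change of 0.195 ± 0.033 (limma-voom, adjusted p = 0.00039). It was 37.4, 41.4 and 42.1 CPM in the untrained and 48.5 to 59.5 CPM in the trained rats of 6 December.

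Among genes lower in trained rats, Rbis, which takes part in ribosome biogenesis, differed on 6 December in every rat. The trained rats ran from 14.8 to 44.1 CPM (median 25.7) and the untrained rats had 53.0, 54.7 and 67.8 CPM. On 17 December the groups overlapped, at 7.86 to 49.5 CPM (median 20.5) in trained and 9.06 to 69.9 CPM (median 32.1) in untrained rats. The adjusted log2 fold change was -0.248 ± 0.055 (limma-voom, adjusted p = 0.0101). By date it was -0.904 ± 0.112 on 6 December, -0.083 ± 0.061 on 17 December and -0.209 ± 0.103 on 18 December. Within date and family it was -0.029 ± 0.08.

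Fam81b and Scgb1c1 were low in level and had wide spreads. Fam81b had medians of 3.21 and 6.48 CPM in trained and untrained rats of 6 December, 2.01 and 6.34 CPM on 17 December, and 1.42 and 4.12 CPM on 18 December. The untrained median was the higher on every date, and 8 of 9 untrained rats of 17 December were above the trained median. The log2 fold change was -0.876 ± 0.183 (limma-voom, adjusted p = 0.00526), -0.755 ± 0.193 without 6 December (adjusted p = 0.327) and -0.642 ± 0.245 in the strata of date and family (adjusted p = 0.971). Scgb1c1, a secretoglobin gene, had medians of 11.5 and 23.9 CPM on 6 December, 6.09 and 22.2 CPM on 17 December, and 3.38 and 17.5 CPM on 18 December in trained and untrained rats. Its trained range on 17 December, 0.0865 to 43.8 CPM, held 8 of the 9 untrained rats. The log2 fold change was -1.005 ± 0.268 (limma-voom, adjusted p = 0.0315).

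Trpm3, a cation channel gene that is abundant in choroid plexus, ran from 11.0 to 33.0 CPM (median 28.2) in trained rats and was 38.7, 43.2 and 58.6 CPM in untrained rats of 6 December, with no overlap. Its medians on 17 December were 31.1 and 30.8 CPM. The log2 fold change was -0.502 ± 0.122 over all dates (limma-voom, adjusted p = 0.0182). By date it was -1.16 ± 0.297 on 6 December, -0.337 ± 0.154 on 17 December and -0.498 ± 0.239 on 18 December. Folr1, a folate receptor and the only choroid plexus marker of 12 that could be matched, had a log2 fold change of -0.752 ± 0.3 and did not pass (adjusted p = 0.139). Its by-date values were -0.79 ± 0.763, -0.792 ± 0.381 and -0.624 ± 0.621. On 6 December its unadjusted medians were 33.1 CPM in trained and 21.9 CPM in untrained rats. Its log2 fold change on that date was 0.082 without the RNA percentages. The medians were 21.7 and 47.7 CPM on 17 December and 15.0 and 42.0 CPM on 18 December. Igf2, a growth factor made in the choroid plexus and meninges, had -0.497 ± 0.201 (adjusted p = 0.144), with -0.553, -0.433 and -0.616 by date. The part that choroid plexus in the punches had in the value of Trpm3 was not tested. In bulk tissue, fewer cells of a type and less RNA per cell cannot be told apart.

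Dab2, an endocytic adaptor, was 3.34 to 8.22 CPM in trained rats and 11.2, 12.4 and 17.6 CPM in untrained rats of 6 December. Its log2 fold change was -0.406 ± 0.118 (limma-voom, adjusted p = 0.0459), with -0.199 ± 0.147 on 17 December and -0.259 ± 0.223 on 18 December. Fam53b likewise did not overlap on 6 December (11.7 to 25.4 CPM in trained rats, 26.7, 27.9 and 34.5 CPM in untrained rats). On 17 December the order of the unadjusted medians was the other way round, 22.7 CPM in trained and 15.0 CPM in untrained rats. Rpl39l, which encodes a ribosomal protein, had 0.489 to 1.77 CPM in the trained and 3.91, 4.78 and 5.01 CPM in the untrained rats of 6 December. Its log2 fold change of -0.701 ± 0.207 (limma-voom, adjusted p = 0.0481) became 0.045 within date and family. Gmeb1, which binds glucocorticoid modulatory elements, and Chsy1, a chondroitin synthase, had log2 fold changes of -0.175 ± 0.042 and -0.161 ± 0.041 (limma-voom, adjusted p = 0.0181 and 0.0257). By date, on 6, 17 and 18 December, Gmeb1 had -0.486, -0.097 and -0.178 and Chsy1 -0.311, -0.17 and -0.05. Kdm5d, a Y-linked histone demethylase, rested on the males of 6 December, where it was 15.9 to 36.5 CPM in trained and 32.8, 34.5 and 35.2 CPM in untrained rats. ENSRNOG00000019316 and ENSRNOG00000005964, with no symbol at hand, had the smallest p among genes lower in trained rats, with log2 fold changes of -0.241 ± 0.046 and -0.325 ± 0.065 (limma-voom, adjusted p = 0.0023 and 0.00303). On 6 December they had -0.568 and -0.89, on 17 December -0.194 and -0.228, and on 18 December -0.157 and -0.209.

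**Figure D4:**
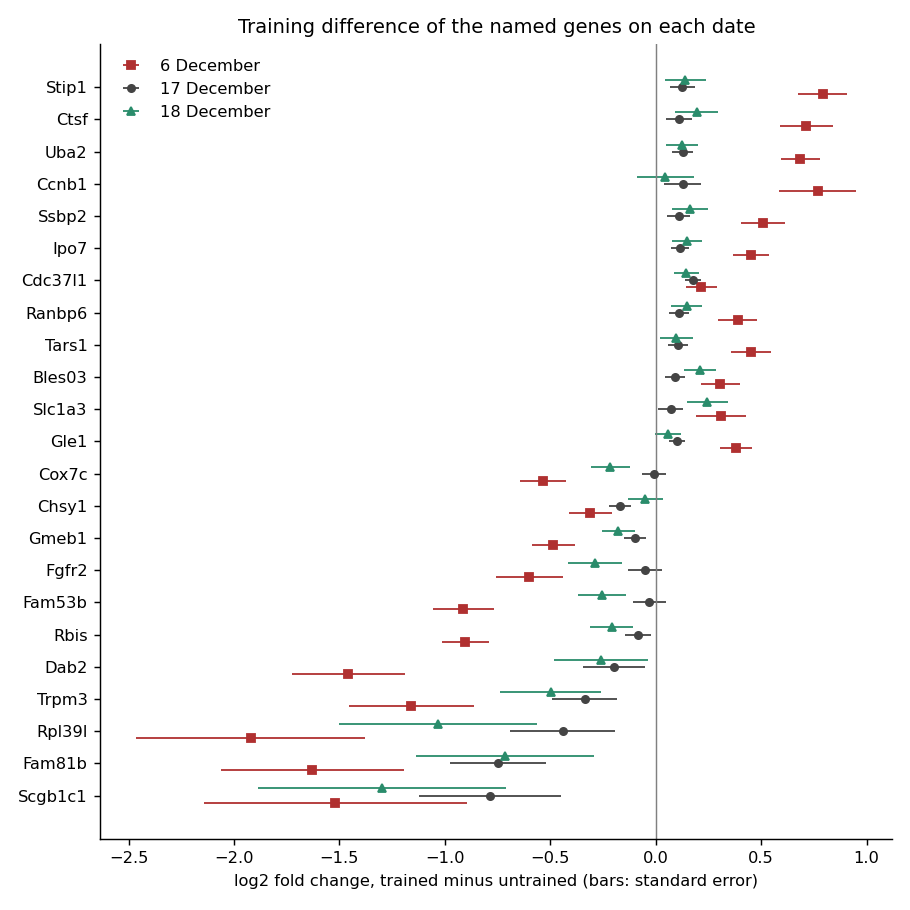
Log2 fold change of trained minus untrained rats (horizontal axis, bars are standard errors) for the named genes with a symbol other than Kdm5d on 6 December (red squares), 17 December (grey circles) and 18 December (green triangles), from a model with a training term for each date. The red squares lie farthest from 0 for all genes shown, while the values of Cdc37l1 (0.216, 0.178 and 0.145) lie close together.

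Whether the difference depended on the date was tested with training by date terms, and 6183 of 19510 genes (31.7%) passed FDR 0.10 in the moderated F test. Without 6 December the count was 0 in limma-voom (1214 genes at an unadjusted p under 0.05), a comparison edgeR was not run on. In that model with a training term for each date, 8090 genes (41.5%) differed between the 6 trained and 3 untrained rats of 6 December, 3475 of them higher (17.8%) and 4615 lower (23.7%). When only the rats of 6 December were fitted, 2464 of 19469 genes (12.7%) passed. On 17 December 6 genes passed (0.0308%), all higher in trained rats, and on 18 December 4 genes (0.0205%), all lower. Of the 1265 genes of the pooled comparison, 1096 also passed on 6 December, 6 on 17 December and 1 on 18 December. The 835 genes higher over all dates had a median log2 fold change of 0.415 on 6 December, 0.09 on 17 December and 0.084 on 18 December. The 430 lower genes had medians of -0.693, -0.111 and -0.226. These genes were chosen on the same rats, so their direction on each date is a description. Over all 19510 genes, the log2 fold changes of 17 and 18 December, which share no rat, had a correlation of 0.018 across genes and the same sign in 49.1% of genes. For 6 and 17 December the correlation was 0.081 and the share 50.0%, and for 6 and 18 December they were 0.115 and 63.1%. Genes are not independent replicates. The median absolute log2 fold change was 0.075 on 17 December, below the median standard error of 0.09, and 0.347 on 6 December, where the median standard error was 0.174.

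Genes of the glutamatergic synapse were lower in trained than in untrained rats on 6 December. Of the 24 symbols in a list of glutamate receptors and postsynaptic proteins, 8 could be matched. Of these 8, 7 passed FDR 0.10 and all 7 were lower (23.7% of all genes tested were lower in the same model). None passed on 17 or 18 December. On 17 December 5 of the 8 estimates were above 0 and their median was 0.138, beside 0.026 for all genes. On 18 December their median was -0.063, beside -0.039 for all genes. Fitted on the 9 males alone, 6 of the 8 passed and were lower, against 7.93% of all genes. Without the rRNA and intergenic percentages 6 of 8 passed and were lower, beside 2762 of all 19510 genes. With DESeq2 size factors in place of TMM scaling 7 of 8 did, beside 4236 of the 19510. Lower values on 6 December were not limited to this list. Chrm1 (-0.659 ± 0.138), Ntrk3 (-0.716 ± 0.154), Pdzd2 (-0.942 ± 0.264) and Rorb (-0.72 ± 0.203), from other lists, also passed. Other list genes passed and were higher, such as Ccnb1 (0.768 ± 0.184) and Ndufv1 (0.307 ± 0.079).

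Shank1 and Shank2 encode scaffolds of the postsynaptic density. Shank1 ran from 78.7 to 160 CPM (median 105) in the trained and was 259, 328 and 351 CPM in the untrained rats of 6 December. Shank2 ran from 3.09 to 6.8 CPM (median 4.56) and was 12.4, 15.6 and 15.9 CPM. Neither gene overlapped between the groups. The log2 fold changes were -1.32 ± 0.239 for Shank1 and -1.734 ± 0.288 for Shank2 (limma-voom, adjusted p = 4.22e-06 and 7.78e-07). These p-values treat the likely littermates of each group as independent. The values were 0.162 ± 0.124 and 0.212 ± 0.163 on 17 December, and -0.264 ± 0.196 and -0.128 ± 0.235 on 18 December.

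Grm5, a metabotropic glutamate receptor, was 26.6 to 59.4 CPM in trained and 62.9, 79.5 and 85.3 CPM in untrained rats of 6 December, a log2 fold change of -1.142 ± 0.202 (limma-voom, adjusted p = 2.6e-06). Dlg2, which encodes the scaffold PSD-93, was 50.4 to 81.9 CPM and 86.2, 107 and 111 CPM, a log2 fold change of -0.86 ± 0.171 (adjusted p = 2.13e-05 in the same fit). Both were without overlap. Slc17a7 was 672 to 1640 CPM in trained rats and 1210, 1260 and 1340 CPM in untrained rats, and its groups overlapped although the adjusted log2 fold change was -0.521 ± 0.123 (limma-voom, adjusted p = 0.000315). The AMPA receptor auxiliary subunit Cacng8 (-0.533 ± 0.128) and the NMDA receptor subunit Grin2d (-0.758 ± 0.247) also passed in the by-date model. On 6 December alone Grin2d was 0.382 with an adjusted p of 0.718 in limma-voom, so its direction depended on the fit. The AMPA receptor auxiliary gene Cnih2 had -0.153 ± 0.142 and did not pass.

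**Figure D5:**
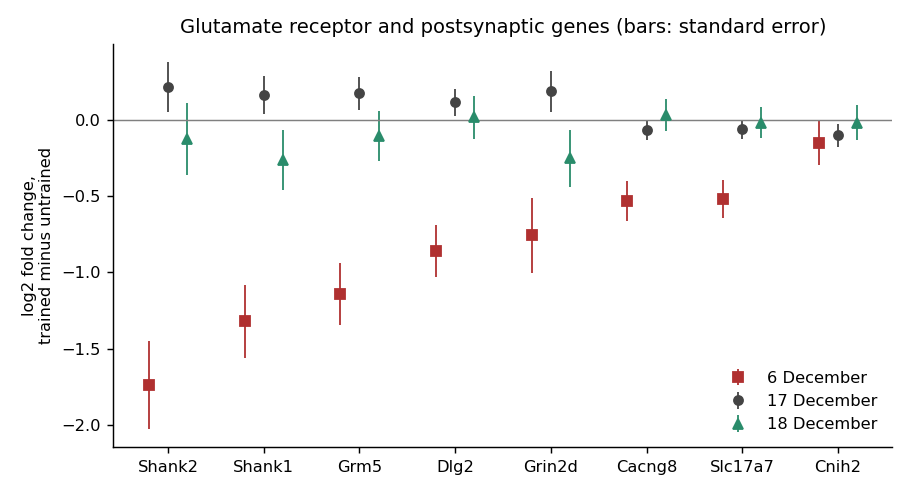
Log2 fold change of trained minus untrained rats (vertical axis, bars are standard errors) for the 8 matched glutamate receptor and postsynaptic genes on 6 December (red squares), 17 December (grey circles) and 18 December (green triangles). On 6 December the values run from -1.734 for Shank2 to -0.153 for Cnih2, and on 17 December from -0.104 for Cnih2 to 0.212 for Shank2. On 18 December they run from -0.264 for Shank1 to 0.032 for Cacng8.

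In the comparison over all dates none of these 8 genes passed. Their median log2 fold change was -0.109, beside -0.005 for all genes tested. Over all 24 gene lists, 49 of 346 distinct symbols could be matched and tested, of which 4 passed FDR 0.10, or 8.16% beside 6.48% of all genes. Those higher in trained rats were Slc1a3, the astrocyte glutamate transporter GLAST (0.15 ± 0.048, limma-voom adjusted p = 0.0642), and Ccnb1, the mitotic cyclin B1 (0.205 ± 0.073, adjusted p = 0.0941). Those lower were Fgfr2, a fibroblast growth factor receptor (-0.194 ± 0.066, adjusted p = 0.0812), and Cox7c, a subunit of cytochrome c oxidase (-0.139 ± 0.048, adjusted p = 0.0828). On 17 December these 4 genes lay between -0.051 and 0.128. On 18 December Slc1a3 had 0.244, Ccnb1 0.046, Fgfr2 -0.288 and Cox7c -0.215, and none passed. Without the RNA percentages the estimates were -0.01 for Slc1a3, 0.103 for Ccnb1, -0.064 for Fgfr2 and -0.499 for Cox7c. The other astrocyte markers tested, the filament gene Gfap and the water channel gene Aqp4, had -0.033 ± 0.057 and -0.087 ± 0.047 over all dates and did not pass. On 6 December Slc1a3 was higher (0.31 ± 0.118) and Aqp4 lower (-0.47 ± 0.11) in trained rats (limma-voom, adjusted p = 0.0296 and 0.000275), and Gfap was -0.222 ± 0.141. With the males fitted alone Slc1a3 did not pass (0.154, limma-voom, adjusted p = 0.32). Aqp4 (-0.342) and Gfap (-0.46) passed in that fit (adjusted p = 0.092 and 0.0739).

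Genes that respond to neuronal activity, stress hormone and time of day did not pass over all dates. Of the activity-dependent genes, Fosb (-0.11 ± 0.121), Npas4 (-0.339 ± 0.218) and Homer1 (-0.001 ± 0.058) could be matched, 3 of 23 in the list. On 6 December Fosb was 2.21 to 4.84 CPM in trained and 4.81, 5.0 and 5.1 CPM in untrained rats, and Homer1 35.1 to 45.0 CPM and 46.4, 52.2 and 53.6 CPM. Their log2 fold changes on that date were -0.861 ± 0.298 and -0.511 ± 0.135 (limma-voom, adjusted p = 0.0161 and 0.0013). They were 0.125 and 0.106 on 17 December and -0.211 and 0.052 on 18 December, where neither passed. When the males were fitted alone neither passed. Among the glucocorticoid targets, the kinase gene Sgk1 was -0.1 ± 0.102, the transcription factor gene Klf9 -0.002 ± 0.05 and the sulfotransferase gene Sult1a1 0.12 ± 0.085 over all dates. On 6 December Sgk1 was higher (0.605 ± 0.246) and Klf9 lower (-0.429 ± 0.114) in trained rats (limma-voom, adjusted p = 0.0443 and 0.00134), while Sult1a1 was 0.407 ± 0.213 and did not pass. With the males fitted alone Klf9 passed (limma-voom, adjusted p = 0.0581) and Sgk1 did not (0.317, adjusted p = 0.46). Without the RNA percentages neither Sgk1 nor Klf9 passed on 6 December. On 17 December the values were -0.134, 0.165 and 0.163 for Sgk1, Klf9 and Sult1a1, and none passed. In the same order they were -0.473, -0.138 and -0.189 on 18 December, and none passed. The dates differed for Sgk1 and Klf9 (moderated F test of training by date, adjusted p = 0.0178 and 0.000169). Among clock genes, the output gene Dbp was 0.188 ± 0.082 and the core clock gene Arntl -0.075 ± 0.048 (limma-voom, adjusted p = 0.178 and 0.381). Dbp was 0.644 on 6 December, where it passed (limma-voom, adjusted p = 0.00419), 0.283 on 17 December and -0.356 on 18 December. With the males fitted alone it was 0.382 (limma-voom, adjusted p = 0.0675). Arntl was -0.134, -0.182 and 0.212 on the dates in the same order and passed on none. In the moderated F test of training by date the adjusted p was 0.00155 for Dbp and 0.0108 for Arntl.

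Markers of other cell types were matched in small numbers. The 2 oligodendrocyte markers, Mag and Opalin, had -0.048 ± 0.097 and -0.092 ± 0.105 over all dates and -0.123 ± 0.24 and 0.055 ± 0.264 on 6 December, and passed in neither. Of the red blood cell genes, Hba-a1, Hba-a2, Hbb and Alas2 had differences of -0.158, -0.245, -0.246 and -0.107 over all dates, none of which passed. On 6 December Hba-a1 was 0.929 ± 0.324, on 17 December -0.503 ± 0.165 and on 18 December -0.011 ± 0.266. Hba-a2, Hbb and Alas2 had 0.759, 0.24 and 0.852 on 6 December and -0.53, -0.457 and -0.541 on 17 December. Hba-a1 and Hba-a2 passed on 6 December (limma-voom, adjusted p = 0.017 and 0.0603), but not with the males fitted alone. The dates differed for Hba-a1, Hba-a2 and Alas2 (moderated F test of training by date, adjusted p = 0.00335, 0.0127 and 0.0311) and not for Hbb. Haemoglobin genes are near-identical copies, so reads may be split between them. Igf1r, the receptor of insulin-like growth factor 1, was 3.24 to 5.38 CPM in trained and 8.72, 11.5 and 11.9 CPM in untrained rats of 6 December. Its log2 fold change on that date was -1.403 ± 0.219 (limma-voom, adjusted p = 2.57e-07). It was 0.208 ± 0.119 on 17 December and -0.429 ± 0.165 on 18 December, and passed on neither.

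A family difference could also be looked at without any untrained rat. Among the 108 trained rats, the 17 of families 11 and 12 differed from the other 91 in 57 of 19503 genes (0.292%) at FDR 0.10 in the same kind of model, 23 higher and 34 lower in those families. Of the 1264 genes called for training and tested here, 8 passed, and all 8 differed in the opposite direction to training. Passing or not, 853 of the 1264 (67.5%) had the opposite sign. The share of opposite signs over all genes tested was not computed, and both comparisons use the same 108 trained rats. Of the 15 untrained rats, 13 came from families 11 and 12, so family and training overlap in the pooled comparison. The part of family in the training difference was not tested. The median log2 fold change in this comparison was -0.016 for the genes higher with training and 0.032 for the genes lower with training, beside 0.001 for all genes. For Cdc37l1 the trained rats of families 11 and 12 differed from the others by -0.007 ± 0.028 (SE, limma-voom), with an adjusted p of 0.983. Dissection day 14 held 1 trained rat of the 6 rats dissected then, so no such comparison was made for it.

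Within date and family a single gene passed, ENSRNOG00000004632, for which no symbol was at hand. Its log2 fold change was 4.797 ± 0.798 in the strata (limma-voom, adjusted p = 0.0143) and 2.146 ± 0.737 over all dates (adjusted p = 0.084). The level was spread over single rats. Of 108 trained rats, 8 exceeded 10 CPM, the highest at 557 CPM, and 0 of 15 untrained rats did, which allows a share of up to 20%. The highest untrained rat had 2.11 CPM. The strata hold 1 trained rat of family 4 on 17 December, at 557 CPM beside 0.623 CPM in the untrained rat of the same family and date, while the highest trained rat in the other strata had 4.52 CPM. The value without this rat was not computed. The medians of 17 December were 0.737 CPM in trained and 0.77 CPM in untrained rats.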

How the data were processed

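Hippocampal polyA RNA libraries were sequenced as paired reads. Per the labels and the methods of the study, the authors aligned them with STAR 2.7.3a to Rnor6 and made the deposited counts, whole reads per Ensembl 103 gene, with Subread 2.0.0; these raw counts were the only file used and no column was left unmatched. Groups were taken from the labels of each rat. Sequencing batch was read from breaks of over 100 in the library numbers, and the intergenic percentage was recomputed as the remainder of the mRNA, intronic and rRNA percentages because the label was damaged.

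Genes with at least 1 read in 25% of the 123 rats were kept (19510 of 32883), scaled by TMM and fitted with limma-voom (limma 3.58.1, edgeR 4.0.16, R 4.3.3) on training, date of death, sequencing batch and the percentages of rRNA and intergenic bases, with Benjamini-Hochberg adjustment over all genes tested and FDR 0.10. Date of death also fixes sex. Differences by date came from 1 model with training by date terms and shared covariate slopes. Fold changes are trained minus untrained on the log2 scale. CPM values are TMM-scaled; adjusted CPM had the fitted batch, rRNA and intergenic terms removed. Alternatives used DESeq2 1.42.0 and edgeR. Measures per rat were compared by two-sided permutation within date (100000 resamples). The fits and the permutation test were first tested on simulated data. Intervals and limits for a count of 0 cover counting error only, and rats of 1 family and birth date are likely littermates, so p-values treat related rats as independent unless a litter term is named.

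Named genes were the 10 with the smallest p in each direction, list genes at FDR 0.10 and genes called with the same sign within date and family. The count table holds Ensembl identifiers only. Symbols came from annotation columns that pair identifier and symbol in the supplementary tables of the study, used for names alone; they covered 1985 identifiers, of which 1984 were tested (10.2%), mostly on chromosome 1. Because most genes by the rule had no symbol, at most 2 identifiers per direction are printed, and up to 10 called genes per direction with a symbol and the smallest p were named instead, a choice made after their values were seen. The rats, gene lists and tests were chosen with earlier results of these data known. Some genes of the lists are not reported here and were left out of the list counts.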

Additional observations from a re-analysis of the deposited data

Results flagged for a closer look

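The training difference depended on the date of death for 6183 genes in the limma-voom F test of the training by date terms. Among the named genes higher in trained rats, the adjusted p of this test was 3.65e-05 for Uba2, 8.33e-05 for Stip1, 0.00114 for Ctsf and 0.00594 for ENSRNOG00000017215. It was 0.0118 for Gle1, 0.0133 for Ipo7, 0.0174 for Ssbp2, 0.0194 for Ccnb1, 0.0206 for Tars1 and 0.0858 for Ranbp6. Among genes lower in trained rats it was 2.28e-06 for Rbis, 3.68e-05 for Fam53b, 0.00101 for Cox7c, 0.00207 for Dab2 and 0.00316 for ENSRNOG00000005964. It was 0.0181 for Gmeb1, 0.029 for Fgfr2 and 0.0307 for ENSRNOG00000019316. In each of these 18 genes the value of 6 December was the largest in size.

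Single rats stood apart from their group by Dixon's ratio, the gap to the nearest rat over the range of the group. Chance alone gives such a rat in about 1 in 20 groups, and 85 values were looked at in all. Among the 6 trained rats of 6 December, the ratio was 0.726 for the highest intergenic percentage, 0.629 for the lowest Ctsf, 0.769 for the highest Fam53b, 0.648 for the highest Fgfr2, 0.827 for the lowest ENSRNOG00000017215, 0.668 for the highest ENSRNOG00000019316 and 0.839 for the highest ENSRNOG00000005964. Among the 9 untrained rats of 17 December, it was 0.67 for the highest RNA concentration, 0.5 for the lowest DV200 (the share of RNA fragments above a set length), 0.599 for the highest intergenic and 0.636 for the highest intronic percentage, 0.638 for the most passing reads and 0.687 for the largest total count. In the same 9 rats it was 0.575 for the lowest Cdc37l1, 0.563 for the highest Gmeb1, 0.624 for the highest ENSRNOG00000019316 and 0.675 for the highest ENSRNOG00000005964. The rat with the highest RNA concentration, untrained replicate 7, also had the highest intergenic percentage of these 9 rats (15.0%).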

How the results depend on the processing

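The count of 1265 genes was within 1.5 times under DESeq2 size factors (1793), a filter of 1 CPM (1723), no filter (1226), edgeR (1231), limma-trend (1115), dissector (861), trained rats with a PavCA Index (1112) and all 245 rats with the covariates of the study (1763, of which 440 were among the 1265). It was 2190 with the DESeq2 Wald test, 2159 with RIN and coverage CV, 530 with age, 144 with RNA concentration, 15 with litter as a random effect, 3 without 6 December, 1 in the strata of date and family and 2939 in all 245 rats with date. It was 0 with dissection day or family added, without rRNA and intergenic percentages, on 17 or 18 December alone, and in strata of date, family and birth date, with 570 to 1622 genes at an unadjusted p under 0.05 in limma-voom. Of the higher and lower calls, 66% were higher as reported, and 40.4% in all 245 rats with date. Settings chosen after seeing the data gave 2464 genes on 6 December alone, 1 without the rats dissected on day 14, 3 without the untrained rats of 6 December, 333 with intergenic alone, 53 with rRNA alone and 0 in strata of date and dissection day (1318 at an unadjusted p under 0.05). Leaving out 1 untrained rat gave 273 to 2697 genes. The count moved by over 1.5 times without replicates 13, 14 and 15 of 6 December (466, 273 and 414) and without replicates 3, 7, 8, 9, 10, 11 and 12 of 17 December (1933, 686, 1991, 2697, 2290, 613 and 616). The date interaction gave 0 genes without 6 December and 4705 to 6320 genes otherwise. In strata of date and family, then with birth date, the difference in RNA concentration was 18.5 and 14.1 ng per µL, in rRNA -0.292 and -0.308 percentage points and in coverage CV -0.00797 and -0.00941, none past the threshold. In the same order, open-arm time turned to -0.463 and -2.94 percentage points, while age turned to -0.118 days in the first and intronic bases to -0.0214 percentage points in the second. Log2 fold changes that turned were, with birth date strata, Stip1 -0.053, Ctsf -0.026, Tars1 -0.032, Rbis 0.003, Slc1a3 -0.069, Fgfr2 0.012 and Cox7c 0.039. Others were Rpl39l 0.045 and Cox7c 0.014 in date and family strata, Bles03 -0.028 and Slc1a3 -0.01 without rRNA and intergenic percentages, Kdm5d 0.078 with dissection day, Fam53b 0.016 in all 245 rats with the covariates of the study and Cox7c 0.019 on 17 December alone. The cause was not tested. No paired analysis was possible because the labels give no number that pairs a trained with an untrained rat, so rats were matched only in the strata of family and birth date and by the litter term above.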
